A study of Homo sapiens with 6 samples.

Results

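The 58 genes described here were 37 receptor tyrosine kinases outside the Eph family and 21 of their growth factor ligands, taken by gene symbol from a table of 26255 genes, and all 58 were found in it. Their mRNA was measured by RNA-seq in H1299 cells, a human lung cancer cell line with an oncogenic NRAS mutation. Of the 6 libraries, 3 came from cells that carried a control shRNA (shControl) and 3 from cells that carried an shRNA against Ephexin1 (shEphexin1), a guanine nucleotide exchange factor that acts with Eph receptors. Both shRNAs were expressed from a U6 promoter on a pSilencer plasmid in cultures kept in serum, and the study asked how depletion of Ephexin1 changed mRNA levels. The study's methods describe stable clones obtained by drug selection. Within each group the library names differ only in a last digit. Nothing in the labels says that the 3 libraries of a group came from separate cultures or clones. The p values therefore measure the spread between these libraries, which may be technical, and an effect of the shRNA cannot be told apart from a difference between the clones or cultures used.

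Receptor tyrosine kinases are single-pass membrane proteins. Binding of a ligand brings receptors together, they phosphorylate each other on tyrosine, and adaptors such as GRB2 and SHC1 then dock and couple them to RAS, ERK and PI3K signalling. Lung cancers are known for activating lesions in several of them, among them EGFR, ERBB2, MET, ALK, ROS1 and RET. Many of the ligands are made by the tumour cells themselves, so that a cell line can hold both sides of a loop.

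Values are FPKM, which are fragments scaled for transcript length and library size. Comparisons between libraries still depend on the normalization, and quantile normalization moved some differences, as given below for AXL. A minimum of 0.1 FPKM in 3 or more libraries was met by 40 of the 58 genes, which were tested. The tests were made with limma on log2(FPKM + 0.1), with Benjamini-Hochberg adjustment over all 16020 genes tested, and calls needed both an adjusted p no higher than 0.025 and a 2-fold difference. Errors given as ± are SDs over the 3 libraries of a group. Read counts were not part of the table, so the depth is unknown, and between 16958 and 17509 genes were above 0 FPKM in a library. NGEF, which encodes Ephexin1, was at 13.3, 11.7 and 16.4 FPKM with the control shRNA and 9.81, 8.25 and 10.5 FPKM with shEphexin1. The groups did not overlap, but the difference was not called (log2 fold change -0.53, SE 0.163, limma adjusted p = 0.103; exact permutation test, two-sided, p = 0.1, which is as small as 3 libraries against 3 can give). With a term for replicate 2 the same fold change had a limma adjusted p of 0.00572 and missed only the 2-fold threshold. These are mRNA values, whereas the study reported the knockdown in its stable clones at the protein level, by western blot. A fold change below is always shEphexin1 relative to shControl. Replicate 2 often lay to the same side in both groups. It was the lowest of its group on both sides for 16 of the 40 members tested, against 35.7% of all genes tested. It was the highest on both sides for 6, against 28.0%. Nothing in the labels or the study's methods sets replicate 2 apart, so a term for it rests on these values and not on the design. With that term, 312 genes were called higher and 252 lower, against 143 and 160 without it.

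The mesenchymal marker VIM was abundant and most epithelial and lung markers were low. VIM, an intermediate filament protein of mesenchymal cells, lay between 1979 and 2670 FPKM. The mesenchymal markers CDH2 and FN1 had log2 fold changes of -0.21 and 0.27 (limma adjusted p = 0.407 and 0.220). The epithelial keratin KRT18 lay between 36.3 and 109 FPKM, lower in shEphexin1 without overlap (limma adjusted p = 0.0439). KRT8, another keratin, was also lower without overlap (limma adjusted p = 0.0304). Its mean was 6.78 ± 1.65 FPKM for shControl and 3.13 ± 0.429 FPKM for shEphexin1 (SD, n = 3). EPCAM, another epithelial marker, was near the filter and went the other way without overlap, at 0.0409 ± 0.0358 FPKM for shControl and 0.173 ± 0.0584 FPKM for shEphexin1 (SD, n = 3; limma adjusted p = 0.175). CDH1, the epithelial cadherin, and NKX2-1, a transcription factor of lung epithelium, were listed at 0 in all 6 libraries. The summed level of 5 endothelial markers was between 0.297 and 0.755 FPKM in shControl and between 0.901 and 1.84 FPKM in shEphexin1, with the tight junction protein CLDN5 as its largest part in each library. Of 5 myeloid markers, PTPRC was listed at 0 in every library, while CD68, a lysosomal protein, was between 37.8 and 71.1 FPKM. The part of these markers in the values below was not tested. A value listed at 0 is reported only as listed, since the widely expressed histone gene H3F3A was also at 0 in all 6 libraries.

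AXL dominated the receptor mRNAs. AXL, a receptor of the TAM family that binds GAS6, was at 788, 674 and 847 FPKM with the control shRNA and 994, 843 and 1036 FPKM with shEphexin1. By mean level it ranked 74 among the 16020 genes tested, and its share of the FPKM summed over all 37 receptors was 80.6% to 83.1% per library. The shEphexin1 values lay higher on the whole, but the highest shControl library was just above the lowest shEphexin1 library. The log2 fold change was 0.32 (95% interval 0.012 to 0.62, limma adjusted p = 0.20), so AXL was not called. Quantile normalization gave 0.71 (limma adjusted p = 0.00144), still under 2-fold. With a term for replicate 2 the fold change of 0.32 had a limma adjusted p of 0.00677 and missed only the 2-fold threshold. With 1 library left out the limma adjusted p was 0.0984 to 0.453.

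Below AXL, 6 receptors had a mean above 10 FPKM, in the order MET, FGFR1, RYK, TYRO3, EGFR and ERBB2. MET, the receptor of HGF, had a mean of 36.5 ± 3.78 FPKM with the control shRNA and 66.2 ± 7.06 FPKM with shEphexin1 (SD, n = 3). FGFR1, a receptor of fibroblast growth factors, was at 28.3, 24.2 and 30.7 FPKM with the control shRNA and 30.2, 26.8 and 32.3 FPKM with shEphexin1. RYK, a Wnt-binding receptor with an impaired kinase, was at 27.6, 27.2 and 25.3 FPKM with the control shRNA and 25.3, 27.9 and 24.1 FPKM with shEphexin1. Neither gene was separated between the groups. TYRO3, another TAM receptor, was at 15.3, 11.7 and 16.1 FPKM with the control shRNA and 19.3, 14.2 and 21.0 FPKM with shEphexin1, which overlapped through replicate 2. The neighbours FGFR1 and RYK overlapped in range in both groups, as did TYRO3 and EGFR. A further 7 receptors had means between 1 and 10 FPKM and 8 of those tested were at or under 1 FPKM.

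Among the ligand members, 4 had a mean above 10 FPKM. The highest mean, 21.0 FPKM for PDGFC, lay below those of AXL, MET, FGFR1 and RYK and above those of TYRO3, EGFR and ERBB2. PDGFC, a ligand of the PDGF receptors, was at 18.8, 21.1 and 19.2 FPKM with the control shRNA and 20.6, 23.9 and 22.6 FPKM with shEphexin1. PROS1, which encodes protein S, an anticoagulant that also binds TAM receptors, was at 17.6, 19.6 and 16.5 FPKM with the control shRNA and 16.5, 19.2 and 12.2 FPKM with shEphexin1. FGF2, basic fibroblast growth factor, was at 10.2, 12.5 and 8.08 FPKM with the control shRNA and 9.95, 12.9 and 8.08 FPKM with shEphexin1. The groups overlapped for PDGFC, PROS1 and FGF2, and replicate 2 was the highest library of each group for each of them. The heparin-binding EGF-like factor HBEGF was the fourth. Several receptors for these ligands were near the floor: PDGFRA was between 0 and 0.0379 FPKM over the 6 libraries and PDGFRB between 0 and 0.0621 FPKM. HGF, the ligand of the well expressed MET, was listed at 0 in 5 libraries and at 0.0327 FPKM in shControl replicate 3.

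**Figure D1:**
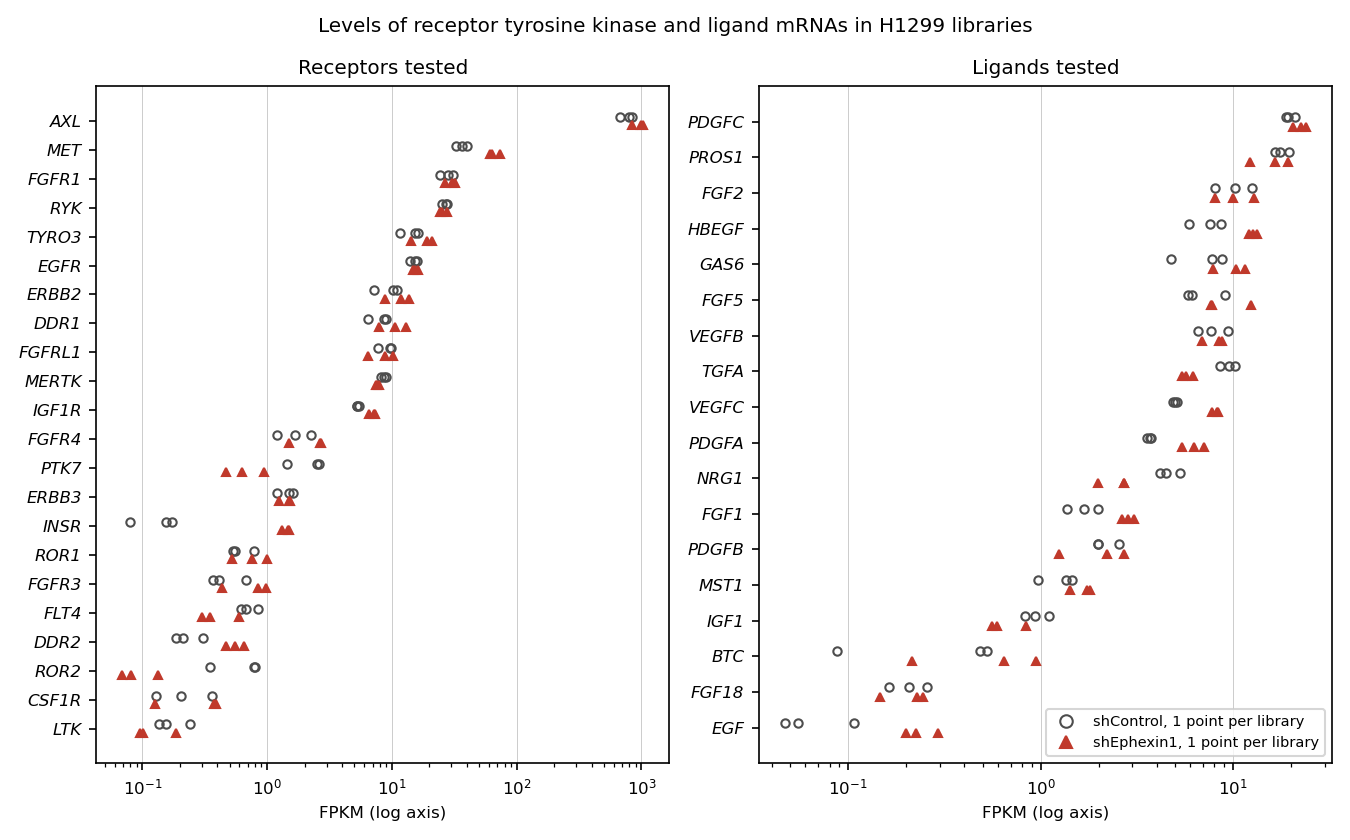
FPKM of the 22 receptors and 18 ligands tested, on a log axis with 1 point per library, sorted by mean level. AXL lies between 674 and 1036 FPKM, far right of every other receptor, while the INSR points of the groups are separated by a wide gap.

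The 18 members under the filter were 15 receptors and 3 ligands. They were ERBB4, FGFR2, MST1R, PDGFRA, PDGFRB, KIT, KDR, FLT1, TEK, TIE1, NTRK2, NTRK3, RET, ALK and ROS1, and the ligands AREG, EREG and HGF. FGFR2 and KIT were listed at 0 in all 6 libraries, and no value of the 18 exceeded 0.232 FPKM. ALK, ROS1 and RET, known from lung cancer fusions, were each listed at 0 in at least 4 of the 6 libraries. NTRK3, the receptor of neurotrophin 3, was the only one of the 18 whose groups did not overlap, with 0, 0.0215 and 0.0258 FPKM with the control shRNA and 0.115, 0.104 and 0.0557 FPKM with shEphexin1. It was not tested and is named here for its values.

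Across the 40 members tested, 1 was called higher and 0 were called lower. Over all genes tested, 0.893% were called higher and 0.999% lower. On the adjusted p alone, whatever the fold, 3 members passed with a higher value (INSR, MET and VEGFC) and 1 with a lower value (TGFA), where 1.25% and 2.15% of all genes did. Unadjusted, 10 members had a p under 0.05 with a higher value and 5 with a lower value, where 10.5% and 12.8% of all genes did. The groups did not overlap for 15 of the 40 members, 9 higher in shEphexin1 and 6 lower, where 12.8% and 15.4% of all genes tested were so placed. The median log2 fold change was 0.23 over the 22 receptors, 0.28 over the 18 ligands and -0.0093 over all genes tested. At the threshold on adjusted p, TGFA (0.0244) was the last inside, and ROR2 (0.0275), PDGFA (0.0288), NRG1 (0.0326), HBEGF (0.0337) and PTK7 (0.0342) followed just outside.

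The receptors with more than a 2-fold difference on the log2(FPKM + 0.1) scale were the 3 genes INSR, ROR2 and PTK7. Their upstream sequences are shown because the results turn on these genes. Each is the stretch of 250 bases before the RefSeq start site, read 5′ to 3′ in the direction of transcription. The sequences come from the RefSeq table on GRCh38.p14, and each matched GRCh37, the build the authors mapped to, exactly and once. Capitals mark the GC box GGGCGG on either strand, the motif bound by SP1-type factors.
INSR, chr19:7294426-7294675 on the minus strand: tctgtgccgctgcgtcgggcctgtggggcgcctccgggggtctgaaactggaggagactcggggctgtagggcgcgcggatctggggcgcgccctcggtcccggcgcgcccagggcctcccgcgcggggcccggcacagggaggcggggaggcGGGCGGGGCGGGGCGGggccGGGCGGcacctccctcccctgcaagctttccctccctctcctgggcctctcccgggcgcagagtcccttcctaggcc
ROR2, chr9:94712511-94712760 on the minus strand: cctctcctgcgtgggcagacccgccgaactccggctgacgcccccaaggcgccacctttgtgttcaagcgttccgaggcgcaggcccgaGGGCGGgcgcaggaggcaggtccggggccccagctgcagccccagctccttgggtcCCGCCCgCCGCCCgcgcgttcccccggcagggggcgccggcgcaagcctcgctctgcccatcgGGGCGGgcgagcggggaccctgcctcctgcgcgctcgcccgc
PTK7, chr6:43043802-43044051 on the plus strand: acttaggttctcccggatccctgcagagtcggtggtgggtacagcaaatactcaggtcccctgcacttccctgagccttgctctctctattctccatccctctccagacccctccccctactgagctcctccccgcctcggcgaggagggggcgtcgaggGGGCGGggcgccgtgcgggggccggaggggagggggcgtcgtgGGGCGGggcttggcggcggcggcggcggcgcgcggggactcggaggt
The INSR window held 4 GC boxes, 3 of them overlapping in 1 run, and the ROR2 and PTK7 windows held 4 and 2. None of the 3 windows held a TATA box (TATAAA) or an AP-1 motif (TGANTCA) on either strand, and their GC content was 78.4%, 78.0% and 71.6%. The RefSeq table matched 52 of the 58 members with 87 start sites. A GC box was present before 58.6% of these 87 start sites and 42.6% of all 35116, a TATA box before 8.05% and 10.7%, and an AP-1 motif before 9.20% and 6.57%. The median GC content of the windows was 64.8% for the members and 58% for all, and its part in the GC box share was not tested. Genes with several start sites were counted once for each.

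INSR, the insulin receptor, had the largest fitted difference of the 40 members and was the only one called, higher in shEphexin1. It was at 0.172, 0.0798 and 0.154 FPKM with the control shRNA and 1.51, 1.32 and 1.48 FPKM with shEphexin1. Every shEphexin1 library was far above every shControl library, and replicate 2 was the lowest of each group. The mean was 0.135 ± 0.0489 FPKM for shControl against 1.44 ± 0.103 FPKM in shEphexin1 (SD, n = 3), a ratio of 10.6. The log2 fold change on the log2(FPKM + 0.1) scale was 2.73 (SE 0.251, limma adjusted p = 0.00231), which understates the ratio because the shControl level is near the pseudocount. INSR reached 0.1 FPKM in 2 of the 3 shControl libraries and in all shEphexin1 libraries. At the alternative filter of 1 FPKM it was kept through the shEphexin1 libraries alone. INSR (GRCh37, chromosome 19, 7112266 to 7294425) was called in all 15 alternative fits, with adjusted p from 0.000311 to 0.0223 and log2 fold changes from 1.10, at a pseudocount of 1 FPKM, to 3.38.

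The close relative of INSR was not called. IGF1R, the receptor of insulin-like growth factors, was at 5.46, 5.21 and 5.26 FPKM with the control shRNA and 7.31, 6.54 and 7.15 FPKM with shEphexin1. The groups were separated, with a log2 fold change of 0.39 (SE 0.120, limma adjusted p = 0.101). In shEphexin1, INSR mRNA still lay below IGF1R mRNA in all 3 libraries. IGF1, the ligand of IGF1R, was at 1.11, 0.831 and 0.933 FPKM with the control shRNA and 0.558, 0.838 and 0.592 FPKM with shEphexin1, where shEphexin1 replicate 2 fell within the shControl range (log2 fold change -0.48, limma adjusted p = 0.267).

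Of the Wnt-binding receptors, ROR2 and PTK7 were lower in shEphexin1 and ROR1 and RYK were not separated. ROR2, a receptor of Wnt5a in noncanonical Wnt signalling, was at 0.801, 0.349 and 0.778 FPKM with the control shRNA and 0.0818, 0.134 and 0.0692 FPKM with shEphexin1. The groups did not overlap, shControl replicate 2 was well below the other control libraries, and the shControl mean was 6.78 times the shEphexin1 mean. The log2 fold change of -1.88 (SE 0.357, limma adjusted p = 0.0275) missed the threshold. ROR2 passed the filter through the shControl libraries, since only 1 shEphexin1 library reached 0.1 FPKM.

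PTK7, a pseudokinase of planar cell polarity, was at 2.58, 1.43 and 2.52 FPKM with the control shRNA and 0.467, 0.633 and 0.950 FPKM with shEphexin1. Here too the groups were apart and shControl replicate 2 was the lowest of its group. The log2 fold change was -1.54 (SE 0.317, limma adjusted p = 0.0342), which was not called. With replicates 1 and 3 alone both genes were called, ROR2 at -2.34 (adjusted p = 0.00932) and PTK7 at -1.78 (adjusted p = 0.0153). A term for replicate 2 gave adjusted p values of 0.00800 and 0.00540. With 1 library left out the adjusted p was 0.0227 to 0.131 for ROR2 and 0.0307 to 0.147 for PTK7. ROR1 had a log2 fold change of 0.22 (95% interval -0.44 to 0.88) and RYK one of -0.052 (95% interval -0.30 to 0.20).

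**Figure D2:**
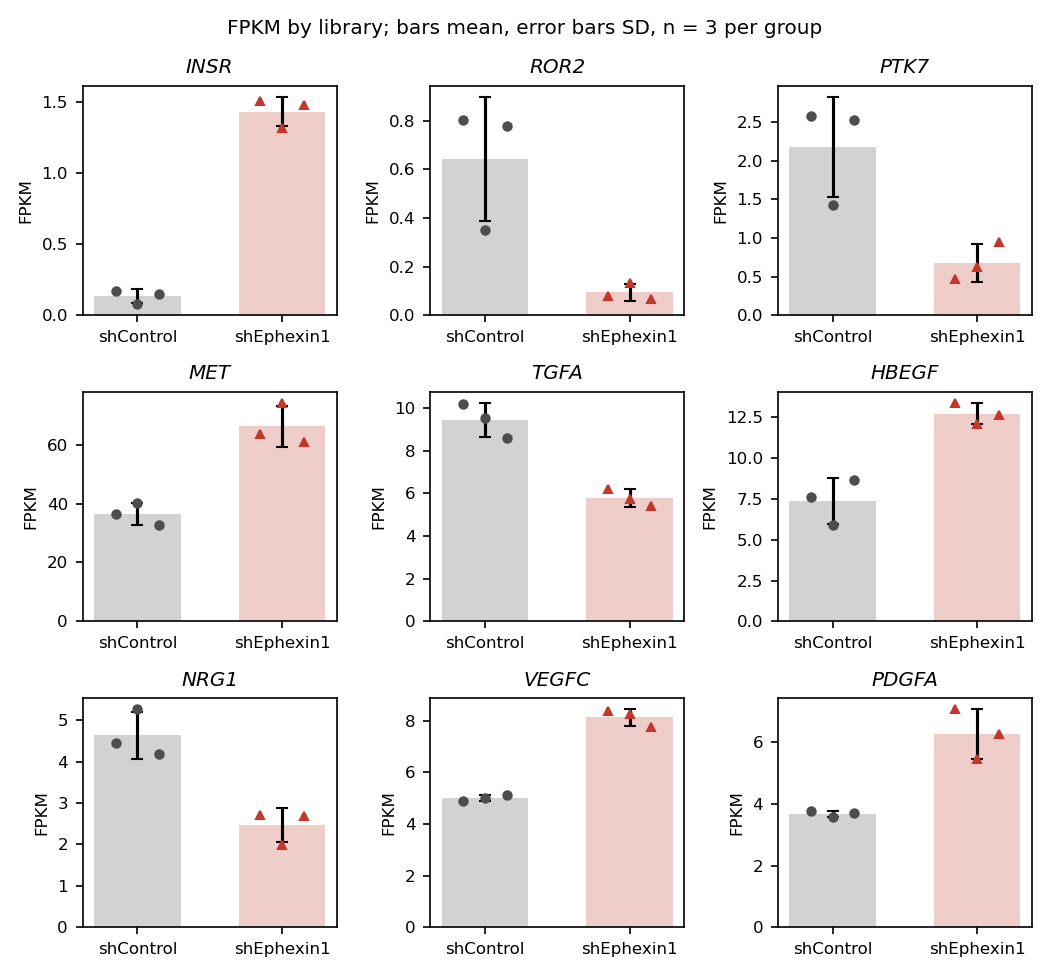
FPKM of 9 members in each library, with 1 point per library, bars for the mean and error bars for the SD (n = 3 per group). The 9 were chosen with their values known and have the lowest adjusted p of the members tested. For each of them the points of the groups do not overlap, with INSR at 0.0798 to 0.172 FPKM in shControl against 1.32 to 1.51 FPKM in shEphexin1.

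MET passed the adjusted p but not the fold threshold. It was at 36.5, 40.3 and 32.7 FPKM with the control shRNA and 63.6, 74.1 and 60.7 FPKM with shEphexin1, with all shEphexin1 libraries above all shControl libraries. The log2 fold change was 0.86 (SE 0.126, limma adjusted p = 0.0122). With 1 library left out the adjusted p was between 0.0188 and 0.0805, and it passed the threshold only without replicate 2 of either group. A term for replicate 2 gave MET a limma adjusted p of 0.000183, still under 2-fold. MST1R, the other receptor of the MET family, was under the filter with at most 0.128 FPKM, and its ligand MST1 was at 1.46, 1.35 and 0.967 FPKM with the control shRNA and 1.42, 1.81 and 1.74 FPKM with shEphexin1, with overlap (log2 fold change 0.38, limma adjusted p = 0.339).

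Most genes around MET had higher values as well. MET lies on chromosome 7 from 116312250 to 116438431 (GRCh37). Within 5 Mb on either side, 22 other genes had a mean of at least 1 FPKM, 20 of them had a positive log2 fold change and 16 did not overlap between the groups, all in the higher direction. Their median log2 fold change was 0.58, and 4 of the 22 were at or above the 0.86 of MET. The flanking CAV1, which encodes the main caveolae protein, had a log2 fold change of 0.67, and TES one of 0.60. A common shift of this stretch and a change of MET itself cannot be told apart in these data. INSR lay far above the median of its surroundings, 0.018 over 171 genes, with 1 gene at or above it. That gene was PTPRS, with a log2 fold change of 4.16 (limma adjusted p = 0.000157). Around ROR2 the 35 neighbours had a median of -0.21, the same sign as ROR2. Of these, 13 were lower and 3 higher without overlap, and none was as low as ROR2. Around PTK7 the median of 64 was -0.066, and TNFRSF21 (-2.20) and SLC25A27 (-1.55) were lower than PTK7. The ligand PDGFA, at the end of 7p, had a higher value amid neighbours that were mostly lower (median -0.41 over 34 genes).

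**Figure D3:**
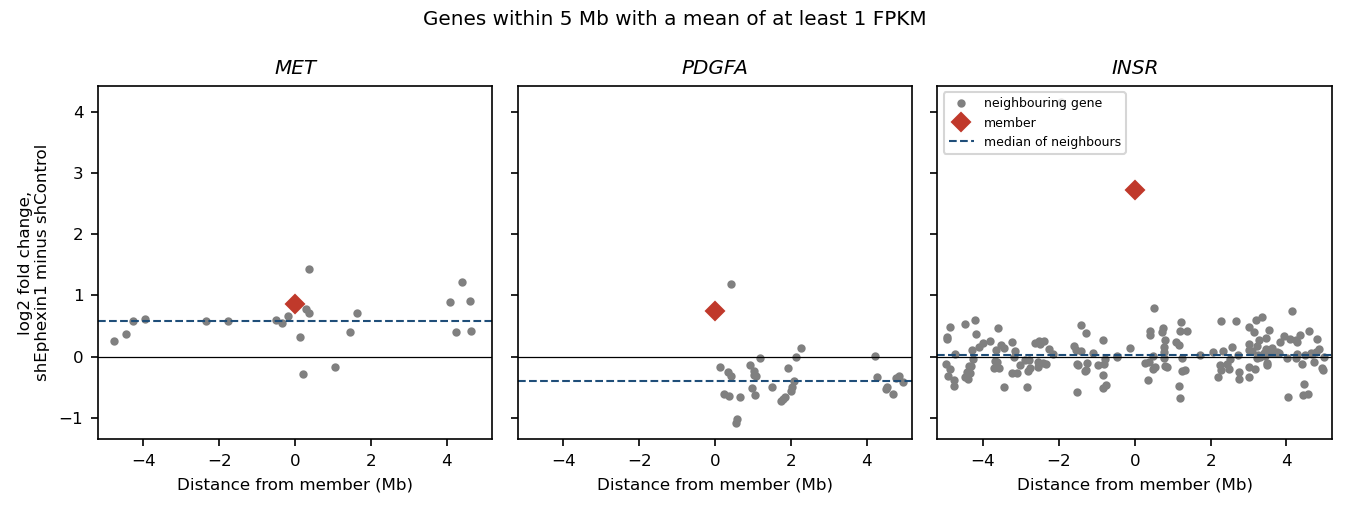
Log2 fold change (shEphexin1 minus shControl) of genes within 5 Mb of MET, PDGFA and INSR against distance from the member in Mb, with the member as a red diamond and the median of its neighbours as a dashed line. The neighbours of MET centre on 0.58, those of PDGFA on -0.41 and those of INSR on 0.018.

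In the ERBB family no receptor was called, and of the ligands TGFA, HBEGF, NRG1 and EGF did not overlap between the groups. EGFR was at 15.4, 15.9 and 14.1 FPKM with the control shRNA and 16.1, 14.8 and 15.3 FPKM with shEphexin1, so the groups were intermixed. Its log2 fold change was 0.026 with a 95% interval of -0.23 to 0.28. ERBB2, the co-receptor without a ligand of its own, had 0.27 (95% interval -0.25 to 0.79), and ERBB3, a neuregulin receptor with an impaired kinase, had -0.0086 (95% interval -0.46 to 0.44) at a level near 1.43 FPKM. The neuregulin receptor ERBB4 was at most 0.0765 FPKM.

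TGFA, an EGFR ligand long studied as a product of transformed cells, was at 10.2, 9.50 and 8.59 FPKM with the control shRNA and 6.21, 5.72 and 5.41 FPKM with shEphexin1. No library of one group reached the range of the other. The mean was 9.43 ± 0.803 FPKM for shControl and 5.78 ± 0.402 FPKM for shEphexin1 (SD, n = 3). The log2 fold change was -0.70 (SE 0.128, limma adjusted p = 0.0244). With any 1 library left out, its adjusted p missed the threshold, at 0.0356 to 0.139. With a term for replicate 2 it was 0.00254, at the same fold change.

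HBEGF, a membrane-bound EGFR and ERBB4 ligand, was at 7.61, 5.88 and 8.66 FPKM with the control shRNA and 13.4, 12.1 and 12.6 FPKM with shEphexin1. It was above the shControl range in every shEphexin1 library (log2 fold change 0.79, SE 0.161, limma adjusted p = 0.0337). In 2 of the 3 shControl libraries TGFA was the higher of the 2 ligands, whereas HBEGF was the higher in all 3 shEphexin1 libraries. The neuregulin NRG1, a ligand of ERBB3 and ERBB4, was at 4.46, 5.27 and 4.18 FPKM with the control shRNA and 2.72, 2.00 and 2.70 FPKM with shEphexin1, again without overlap (log2 fold change -0.89, SE 0.179, limma adjusted p = 0.0326). Neither HBEGF nor NRG1 passed the threshold. With a term for replicate 2 the adjusted p was 0.00155 for HBEGF and 0.00590 for NRG1, both under 2-fold. With 1 library left out it was 0.0431 to 0.146 for HBEGF and 0.0419 to 0.134 for NRG1.

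The remaining EGFR ligands were scarce. EGF itself was at 0.0470, 0.107 and 0.0552 FPKM with the control shRNA and 0.199, 0.225 and 0.293 FPKM with shEphexin1. It passed the filter through the shEphexin1 libraries, and its log2 fold change of 1.00 was not called (SE 0.314, limma adjusted p = 0.106). BTC, betacellulin, spread over 0.0873 to 0.946 FPKM with overlapping groups. AREG was at most 0.207 FPKM and EREG at most 0.0282 FPKM.

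None of the FGF receptors was called. FGFR1 had a log2 fold change of 0.10 (95% interval -0.20 to 0.41), and FGFR3, FGFR4 and the decoy-like FGFRL1, which lacks a kinase domain, had 0.52, 0.40 and -0.11 with overlapping groups. Among the ligands, FGF1, acidic fibroblast growth factor, was at 1.99, 1.67 and 1.37 FPKM with the control shRNA and 2.83, 3.07 and 2.64 FPKM with shEphexin1. Its groups did not overlap, but it was not called (log2 fold change 0.74, SE 0.183, limma adjusted p = 0.0565). HBEGF and FGF1 both lie on the long arm of chromosome 5, where the median log2 fold change of neighbours within 5 Mb was 0.24 (87 genes) and 0.20 (90 genes), and the part of that shift in their values was not tested. FGF2, FGF5 and FGF18 had log2 fold changes of 0.0023, 0.39 and -0.017 with overlapping groups.

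The TAM ligands and the other TAM receptors were not called. GAS6, the ligand of AXL, TYRO3 and MERTK, was at 7.78, 4.73 and 8.72 FPKM with the control shRNA and 10.4, 7.88 and 11.5 FPKM with shEphexin1, where the lowest shEphexin1 library was within the shControl range (log2 fold change 0.51, limma adjusted p = 0.282). MERTK had means of 8.61 ± 0.396 and 7.65 ± 0.251 FPKM (SD, n = 3), a small difference without overlap (log2 fold change -0.17, limma adjusted p = 0.430). TYRO3 had a log2 fold change of 0.33 and PROS1 one of -0.18. With a term for replicate 2 the limma adjusted p was 0.0112 for TYRO3 and 0.0097 for GAS6, both under 2-fold. It was 0.169 for MERTK and 0.278 for PROS1. With 1 library left out the limma adjusted p was 0.11 to 0.623 for TYRO3 and 0.157 to 0.521 for GAS6.

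VEGFC passed the adjusted p with a higher value in shEphexin1. VEGFC, a growth factor of lymphatic vessels, was at 4.89, 5.01 and 5.11 FPKM with the control shRNA and 8.38, 8.23 and 7.77 FPKM with shEphexin1. Both groups were tight and well apart, with a log2 fold change of 0.69 (SE 0.116, limma adjusted p = 0.0188), which is under 2-fold. Leaving out any 1 library took the adjusted p past the threshold, to between 0.0293 and 0.116. For VEGFC it was 0.00141 with a term for replicate 2, at the same fold change. FLT4, its receptor, was at 0.679, 0.619 and 0.847 FPKM with the control shRNA and 0.347, 0.302 and 0.598 FPKM with shEphexin1 and was not called (log2 fold change -0.69, SE 0.284, limma adjusted p = 0.199). These groups did not overlap. VEGFB, an FLT1 ligand, was at 7.71, 6.54 and 9.40 FPKM with the control shRNA and 8.74, 6.89 and 8.48 FPKM with shEphexin1, with overlap (log2 fold change 0.035, 95% interval -0.37 to 0.44). The endothelial receptors KDR, FLT1, TEK and TIE1 were under the filter. Of the endothelial markers, to which TIE1 itself belongs, PECAM1 was at most 0.0992 FPKM, CDH5 at most 0.276 FPKM and VWF at most 0.280 FPKM. CLDN5 was higher in shEphexin1 without overlap, with means of 0.342 FPKM for shControl and 1.06 FPKM for shEphexin1, but was not called (limma adjusted p = 0.0647).

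Of PDGFA, PDGFB and PDGFC, only PDGFA did not overlap between the groups. It was at 3.76, 3.56 and 3.69 FPKM with the control shRNA and 7.06, 5.44 and 6.25 FPKM with shEphexin1 (log2 fold change 0.74, SE 0.144, limma adjusted p = 0.0288), and missed the threshold. PDGFB and PDGFC had log2 fold changes of -0.14 and 0.18 with overlapping groups. CSF1R, the best expressed receptor of this class, was at 0.129, 0.204 and 0.364 FPKM with the control shRNA and 0.376, 0.127 and 0.386 FPKM with shEphexin1, with overlapping groups.

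DDR1 and DDR2 are receptors of collagen. DDR2 was at 0.307, 0.210 and 0.187 FPKM with the control shRNA and 0.658, 0.470 and 0.555 FPKM with shEphexin1, without overlap (log2 fold change 0.99, SE 0.266, limma adjusted p = 0.0705). DDR1 was at 8.71, 6.41 and 9.04 FPKM with the control shRNA and 10.5, 7.89 and 13.04 FPKM with shEphexin1, which overlapped (log2 fold change 0.36, limma adjusted p = 0.378). Of NTRK2, NTRK3, RET, ALK, LTK and ROS1, LTK was the best expressed, at 0.243, 0.136 and 0.156 FPKM with the control shRNA and 0.0966, 0.102 and 0.185 FPKM with shEphexin1, again with overlap. NRG1, FGF1, PDGFA, MERTK, GAS6 and DDR2 fall outside the rule for named genes and were picked out once their values were known.

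**Figure D4:**
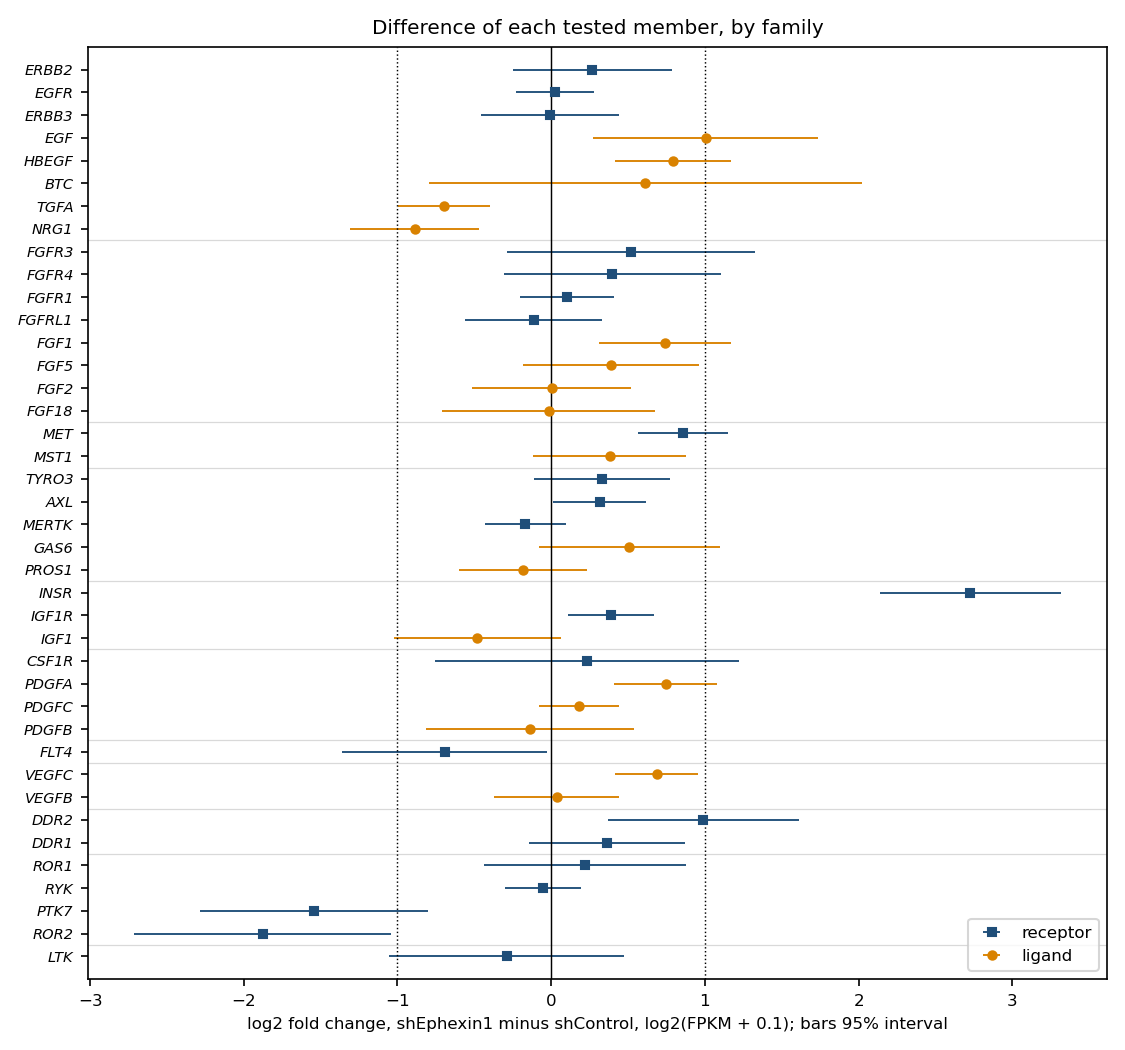
Log2 fold change (shEphexin1 minus shControl, on log2(FPKM + 0.1)) of the 40 members tested, by family, with 95% intervals from limma, squares for receptors and circles for ligands. INSR at 2.73 lies right of the dotted 2-fold line with its whole interval, ROR2 lies left of the other line with its whole interval, and EGFR is at 0.026.

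The genes around the receptors were read from 5 lists of 123 genes in all, of which 81 were tested. Called were 2 higher and 3 lower, where 0.893% and 0.999% of all genes tested were called. Among other ligands, 0 of 24 tested were called higher and 2 lower (median log2 fold change -0.066). PTN, pleiotrophin, a heparin-binding growth factor, was at 6.37, 6.33 and 6.41 FPKM in shControl and was listed at 0 in all 3 shEphexin1 libraries. Its relative MDK, midkine, the most abundant ligand mRNA of the list, missed the threshold at 101 ± 16.5 and 61.9 ± 10.6 FPKM (SD, n = 3; log2 fold change -0.71, limma adjusted p = 0.0521). PDGFD, a ligand of PDGFRB, was called lower, with 0.678 ± 0.0849 FPKM for shControl and 0.192 ± 0.0142 FPKM for shEphexin1 (SD, n = 3; limma adjusted p = 0.0182).

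Among co-receptors and binding proteins, 2 of 13 tested were called higher and 1 lower (median 0.52). NRP1, a co-receptor of VEGF and semaphorins, was at 1.32, 1.86 and 2.14 FPKM with the control shRNA and 6.98, 6.45 and 6.69 FPKM with shEphexin1, clear of each other (log2 fold change 1.89, SE 0.194, limma adjusted p = 0.00360). Of the 5 binding proteins of insulin-like growth factors tested, 2 were called, in opposite directions: IGFBP4 rose by a log2 fold change of 1.94 (limma adjusted p = 0.0129) and IGFBP2 fell by 2.18 (limma adjusted p = 0.0174). IGFBP2 was at 3.31 ± 1.39 FPKM for shControl against 0.647 ± 0.273 FPKM in shEphexin1, and IGFBP4 at 0.322 ± 0.0921 and 1.54 ± 0.435 FPKM (SD, n = 3). IGFBP3, IGFBP6 and IGFBP7 overlapped between the groups, with log2 fold changes of -0.074, 0.44 and 0.65 (limma adjusted p = 0.831, 0.308 and 0.607), and IGFBP1 and IGFBP5 were under the filter. IGF2, the other ligand of IGF1R, and INS were listed at 0 in all 6 libraries. Of the 5 genes called, PTN stayed called with any 1 library left out. The call of NRP1 was lost without shEphexin1 replicate 1, that of IGFBP4 held only without shEphexin1 replicate 2, and those of IGFBP2 and PDGFD were lost whichever library was left out.

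None of the 26 adaptors and proximal effectors tested was called or passed the adjusted p (median -0.020). GRB2 was at 32.9 ± 3.94 and 22.7 ± 2.81 FPKM (SD, n = 3; log2 fold change -0.53, limma adjusted p = 0.0683). Of 12 negative regulators tested, none reached 2-fold with the adjusted p (median -0.031). ERRFI1, a feedback inhibitor of EGFR, was at 37.3, 42.5 and 36.0 FPKM with the control shRNA and 61.6, 67.5 and 57.3 FPKM with shEphexin1, which did not overlap (log2 fold change 0.69, limma adjusted p = 0.0182). RNF41, a ubiquitin ligase for ERBB3, had a log2 fold change of -0.64 (limma adjusted p = 0.0209). None of 6 other receptors tested was called (median 0.36).

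**Figure D5:**
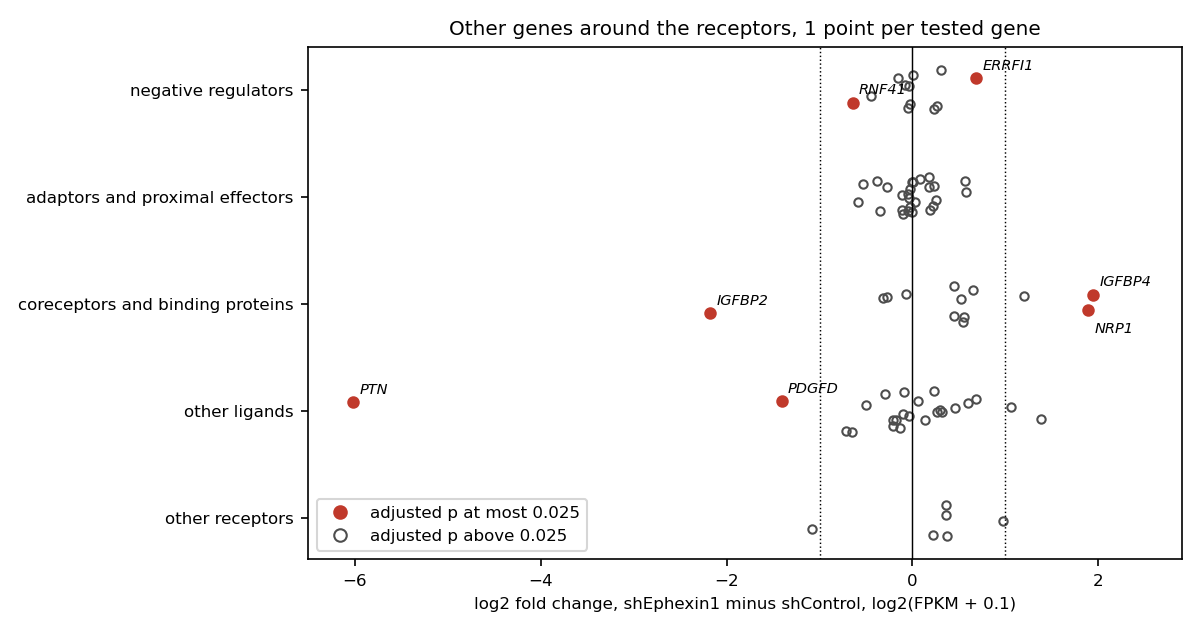
Log2 fold change (shEphexin1 minus shControl, on log2(FPKM + 0.1)) of the 81 tested genes of 5 lists around the receptors, 1 point per gene with vertical jitter. Filled points have a limma adjusted p of at most 0.025, and PTN, listed at 0 in shEphexin1, lies far left.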

How the data were processed

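RNA-seq of 3 shControl and 3 shEphexin1 libraries was analysed, grouped by their titles. The authors isolated total RNA with TRIzol, prepared stranded total RNA libraries, mapped reads to GRCh37/hg19 with TopHat2 2.0.13 and deposited FPKM per gene and library from Cuffdiff (Cufflinks 2.2.1) with geometric normalization. The gene annotation is not given in the sources used here. All 6 value columns were used. Without read counts the depth per library is unknown and counting intervals could not be computed.

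The test, on log2(FPKM + 0.1), took genes that reached 0.1 FPKM in 3 or more libraries. It used limma 3.58.1 under R 4.3.3, with a mean-dependent prior variance and p values adjusted by the Benjamini-Hochberg method over all of them. Calls needed an adjusted p no higher than 0.025 and a 2-fold difference, as in the study. Tables were made with Python 3.11.15 and pandas 2.3.3, plots with matplotlib 3.10.9. The fit was tested on simulated data with independent noise. Changes there were placed only in genes of higher level, so low genes such as INSR and ROR2 were not covered. Positions come from GENCODE release 44 on GRCh37. Members and lists were chosen with earlier results of these data known. Values in every library are given for members called or past the adjusted p, members without overlap and at least 2-fold apart, the 6 receptors and 4 ligands of highest mean, and the best expressed receptor and ligand of each family. Genes of the lists are named where called. ERRFI1, RNF41, GRB2, MDK, IGF2, INS and the other IGFBP genes, like the members outside this rule, were named after their values were seen.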

Additional observations from a re-analysis of the deposited data

How the results depend on the processing

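INSR was the only member called higher in all 15 alternative fits and at an adjusted p of 0.05, and without a fold threshold 3 members were called higher. The members called lower, 0 in the report, were 1 with quantile normalization, 2 with a replicate block, 2 with replicates 1 and 3 alone, 2 with a term for replicate 2, 2 at an adjusted p of 0.05, 1 without a fold threshold, and 0 to 1 when single libraries were left out (1, ROR2, without shControl replicate 2). Over all genes, 143 called higher and 160 lower became 73 and 66 with a pseudocount of 1 FPKM, 309 and 247 with the replicate block, and 312 and 252 with the term for replicate 2. Replicates 1 and 3 alone gave 234 higher, the adjusted p of 0.05 gave 239 higher, the filter of 1 FPKM gave 105 lower, and the adjusted p alone gave 345 lower. With each library left out in turn, 23 to 159 were called higher and 37 to 157 lower. It was 24 higher and 37 lower without shControl replicate 1, 84 and 105 without shControl replicate 2, 55 and 66 without shControl replicate 3, 23 and 56 without shEphexin1 replicate 1, and 36 and 73 without shEphexin1 replicate 3.

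Of the genes around the receptors, 2 called higher became 1 with a pseudocount of 1 FPKM, 4 with the replicate block, 5 with replicates 1 and 3 alone and 4 with the term for replicate 2. With single libraries left out, 0 to 3 were called higher and 1 was called lower each time, PTN. Replicate numbers were not taken as pairs, since deviations of replicate 1 correlated at only 0.0914 between the groups (0.430 for replicate 2 and 0.328 for replicate 3), although each library correlated best with its own number, a hint from the data and not from the design. Members with a difference near 0 changed sign. RYK was at 0.0063 with quantile normalization, and FGF2 at -0.021 with replicates 1 and 3 alone. When single libraries were left out, EGFR ranged from -0.026 to 0.063, FGF2 from -0.17 to 0.16, CSF1R from -0.0030 to 0.59 and VEGFB from -0.090 to 0.17. Quantile normalization raised the log2 fold change of AXL from 0.32 to 0.71. NGEF stayed uncalled in each alternative fit, with log2 fold changes from -0.64 to -0.40, but with the replicate block (adjusted p = 0.00284) and the term for replicate 2 (0.00572) it missed only the fold threshold. In the other fits its adjusted p was above the threshold, up to 0.268. The causes were not tested. Without read counts, the precision of members under 1 FPKM, INSR and ROR2 among them, is unknown.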
